A study of Mus musculus with 12 samples.

Results

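The neurotrophins are secreted growth factors that keep neurons alive during development and tune synapses in the adult cortex. Brain-derived neurotrophic factor (Bdnf) binds the receptor tyrosine kinase TrkB (Ntrk2), neurotrophin 3 binds TrkC (Ntrk3), and every neurotrophin can bind the p75 receptor (Ngfr), which favours their uncleaved precursors when it is paired with sortilin (Sort1). In the prefrontal cortex Bdnf is made mainly by excitatory neurons in response to activity, and it has long been studied in rodent models of stress. The genes described here are 5 of these 6, Bdnf, Ntrk2, Ntrk3, Ngfr and Sort1, of 17656 genes measured. The list was drawn up by gene name, with earlier results of these data known. Each of the 5 had 1 probe set that the platform annotation assigns to it alone. The gene for neurotrophin 3, Ntf3, is paired with no probe set in the annotation used and was not analysed here. The paper's supplemental table, from the same arrays, lists neurotrophin 3 among the genes lower after chronic social defeat. The values below do not speak for that gene.

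Expression was measured in the medial prefrontal cortex (mPFC) of 6 wild type male C57BL/6 mice exposed to chronic social defeat (CSD) and 6 wild type male C57BL/6 homecage (HC) mice, with 1 Affymetrix Mouse Gene ST array per mouse. A CSD mouse lived for 14 days behind a perforated partition in the cage of an aggressive CD-1 male and met it for 5 min a day. The mPFC was dissected 24 h after the final encounter. HC mice lived in groups, so that defeat and the change of housing cannot be told apart, and CSD mice had to meet behavioural criteria to be included. The mice were adults, with no age in weeks given in the sources used. The values are log2 values that the authors made with robust multi-array averaging (RMA), and values under a system noise level of 5.75 were raised to it.

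Of 29838 probe sets kept, 0 passed limma with Benjamini-Hochberg adjustment, and 0 the methods' t-test with it. Without adjustment, limma gave 406 probe sets with p under 0.05 and a fold change of 1.2 or more, which is 1.36% of those kept, and the methods' t-test 301. Among cell type markers those of mature oligodendrocytes stood apart. All 13 measured had a lower mean in CSD mice and an unadjusted p under 0.05 in limma (0 after adjustment), and their summed linear level lay between 9552 and 13367 on CSD arrays, against 13655 to 19732 on HC arrays. Markers of excitatory cortical neurons were well expressed, with sums of 23461 to 26924 in CSD and 23437 to 25421 in HC mice. The sums of astrocyte markers overlapped as well, at 27607 to 28397 in CSD and 27199 to 29416 in HC mice. Of the 10 astrocyte markers, 9 had a lower and 1 a higher mean in CSD mice, where 57.1% of all measured genes had a lower mean. An unadjusted p under 0.05 in limma was reached by 2 of the 9 (0 after adjustment). Probe sets with no value above the noise level had been left out beforehand, so every marker counted exceeded it on some array. HC replicates 2 and 6 correlated least with the other arrays of their group, at a median r of 0.992 and 0.991, where the others ranged from 0.994 to 0.996. Without them the share of genes with a higher mean in CSD turned round, with 10214 higher and 7238 lower, against 7566 higher and 10090 lower over all 12 arrays.

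For none of the 5 genes was a difference between CSD and HC mice detected. Bdnf, Ntrk2, Ntrk3 and Sort1 had slightly higher means in CSD mice and Ngfr a slightly lower one, where 42.9% of all measured genes had a higher and 57.1% a lower mean. Every difference was under 0.07 log2 units, smaller than the fold limit of 1.2, which is 0.26 log2 units and which 0.799% of all measured genes reached. At an adjusted p under 0.05, 0 of the 5 were called, as were 0% of all measured genes, and at an unadjusted p under 0.05 in limma 0 of the 5 passed, where 8.41% of all measured genes did. For none of the 5 did the groups separate, whereas every CSD mouse lay below every HC mouse for 0.935% and above for 0.0793% of all measured genes, 1.01% in all. The 95% interval from limma lay within a fold change of 1.2 in both directions for Ntrk2, Ntrk3, Ngfr and Sort1 but not for Bdnf, and it did so for 89% of all measured genes. The tissue is a mixture of cells, so that fewer cells of a type and less RNA per cell cannot be told apart.

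Bdnf, the ligand, was the most variable of the 5 between mice. Its log2 value ranged from 7.59 to 8.05 with a median of 7.87 in CSD mice, and from 7.56 to 8.05 with a median of 7.76 in HC mice. The ranges coincided almost entirely. In each group some mice lay near the bottom and others near the top, with CSD replicates 2 and 6 at 7.63 and 7.59, and HC replicates 1, 5 and 6 at 7.66, 7.56 and 7.61. The mean was 7.83 ± 0.19 in CSD and 7.77 ± 0.19 in HC mice (SD, n = 6 each). The difference of 0.06 log2 units (standard error 0.10) was smaller than the spread between mice, with an adjusted p of 0.915 from limma and p = 0.578 in the exact permutation test, two-sided. The interval of the fold change ran from 0.897 to 1.21, and the values are compatible with a change anywhere within those bounds. The smallest change detectable with this number of mice was not worked out. The within-group SD of Bdnf, 0.189, was larger than that of 96.6% of measured genes, whose median was 0.0960.

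Bdnf has several promoters, each with a first exon of its own, that feed the same coding exon, and the probe set gives 1 value for all of them. RefSeq lists 12 curated Bdnf transcripts, and its promoter table (build GRCm38.p6) holds 7 Bdnf start sites, against 1 each for Ntrk2 and Ngfr. The 250 bases before each start were searched for the cAMP response element half-site, TGACGT or ACGTCA on the other strand, because CREB is the best known activator of Bdnf. Of the 7 windows 1 held it, from 36 to 31 bases before the start at position 109692436 of chromosome 2. Of all promoter windows of this length 6.47% did, and 1 match in 7 windows does not set Bdnf apart from that share. The E-box CACGTG, whose ACGT core a half-site cannot share, was in none of these windows of the 3 genes and in 6.02% of all windows. The stretch is shown because activity-driven Bdnf transcription is the part of this system that a stress model would be asked about first. It lies at chr2:109692376-109692429 on the plus strand, upstream of that start, and the capitals mark the half-site.
Bdnf: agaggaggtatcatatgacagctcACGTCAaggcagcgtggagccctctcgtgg
A match of letters is no evidence of binding. Transcripts from this start could not be separated from the others on this array.

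**Figure D1:**
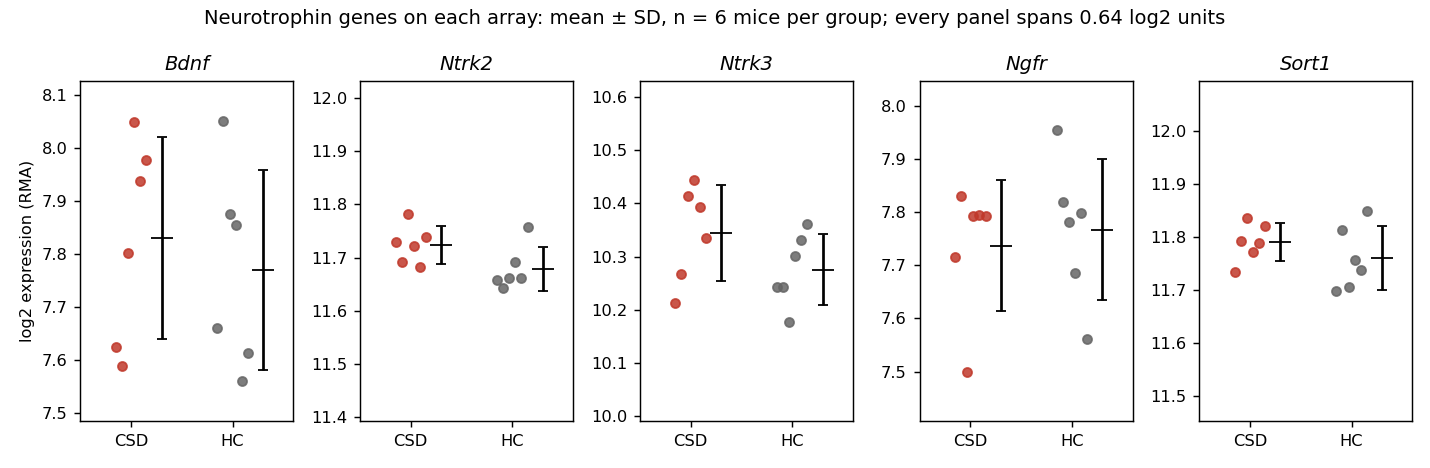
Log2 expression (vertical axis) of Bdnf, Ntrk2, Ntrk3, Ngfr and Sort1 on each array, with CSD mice in red on the left and HC mice in grey on the right of each panel, and black marks for the group mean ± SD (n = 6). The groups overlap in every panel, and the points of Bdnf and Ngfr spread more widely than those of Ntrk2 and Sort1.

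Ntrk2 encodes TrkB, whose full-length form signals in neurons and whose truncated form, which lacks the kinase, is abundant in astrocytes. The probe set does not separate these forms. On the CSD arrays Ntrk2 ranged from 11.68 to 11.78 with a median of 11.73, and on the HC arrays from 11.64 to 11.76 with a median of 11.66. Each of the 6 CSD values exceeded the HC mean of 11.68, but HC replicate 6, at 11.76, was higher than 5 of them. The means were 11.72 ± 0.04 in CSD and 11.68 ± 0.04 in HC mice (SD, n = 6 each), a difference of 0.04 log2 units (standard error 0.03, adjusted p = 0.777 from limma, exact permutation p = 0.0779, two-sided). This corresponds to a fold change of 1.03 with an interval from 0.984 to 1.08. Ntrk2 was measured with little spread, its within-group SD of 0.0388 being larger than that of only 2.76% of measured genes.

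Ntrk3, the TrkC gene, is expressed by neurons of most cortical layers. Its log2 value ranged from 10.21 to 10.44 with a median of 10.36 in CSD mice, and from 10.18 to 10.36 with a median of 10.27 in HC mice. CSD replicates 7, 8 and 9 exceeded every HC mouse, whereas CSD replicates 2 and 6 lay below the HC mean. The difference of 0.07 log2 units (standard error 0.05) had an adjusted p of 0.772 from limma and an exact permutation p of 0.169, two-sided. The interval of the fold change was 0.976 to 1.13.

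Ngfr encodes p75, a receptor of the tumour necrosis factor family without a kinase. Its expression is low in the adult cortex. Ngfr ranged from 7.50 to 7.83 with a median of 7.79 in CSD mice, and from 7.56 to 7.96 with a median of 7.79 in HC mice. The medians were thus the same to 2 decimals. CSD replicate 7 lay below all other mice, and 4 of the 6 CSD mice were within a narrow band near 7.8. The means were 7.74 ± 0.12 in CSD and 7.77 ± 0.13 in HC mice (SD, n = 6 each), a difference of −0.03 log2 units (standard error 0.07, adjusted p = 0.949 from limma, exact permutation p = 0.699, two-sided). Its sign rested on single mice, since it was 0.02 without CSD replicate 7 and 0.01 without HC replicate 1. The interval of the fold change was 0.882 to 1.09.

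Sort1 encodes sortilin, which carries proneurotrophins through the secretory pathway and forms the receptor for them together with p75. It ranged from 11.73 to 11.84 with a median of 11.79 in CSD mice, and from 11.70 to 11.85 with a median of 11.75 in HC mice. The HC values enclosed all CSD values, and 5 of the 6 CSD mice were above the HC mean. The difference of 0.03 log2 units (standard error 0.04) had an adjusted p of 0.876 from limma and an exact permutation p of 0.303, two-sided. The interval of the fold change was narrow, from 0.969 to 1.08. Without HC replicates 2 and 6 the difference was 0.07 (adjusted p = 0.593 from limma).

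**Figure D2:**
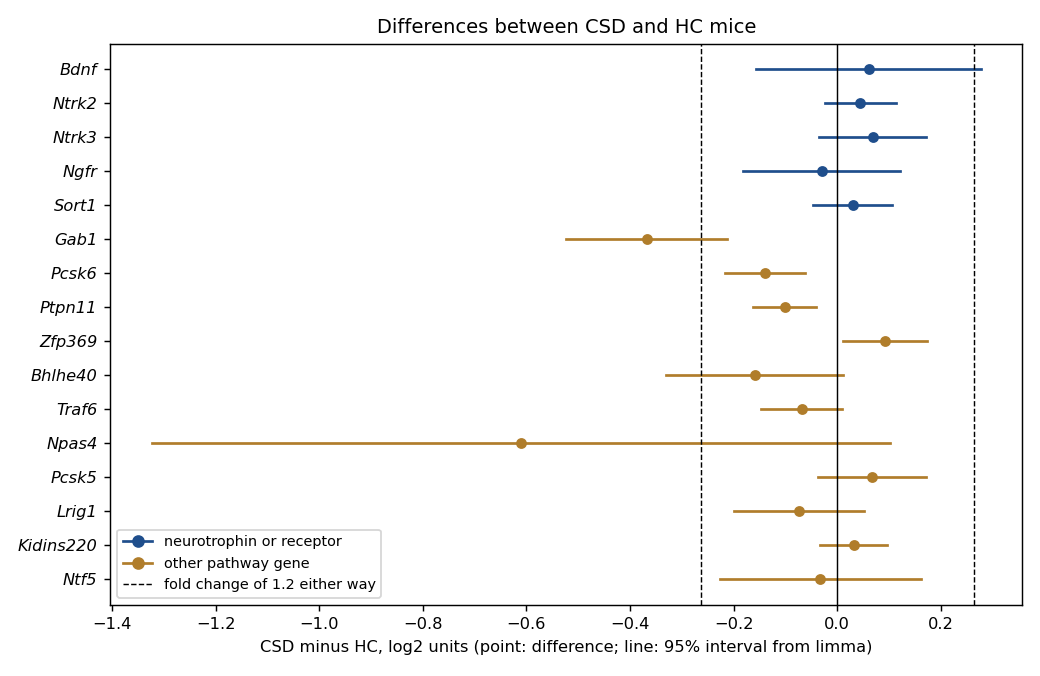
Difference of CSD minus HC mice in log2 units (horizontal axis) for the 5 neurotrophin and receptor genes (blue) and 11 other genes of the pathway (ochre), with the 95% interval from limma as a line and a fold change of 1.2 in either direction as dashed lines. All 5 blue intervals include 0, and only that of Bdnf crosses a dashed line, whereas those of Gab1, Pcsk6 and Ptpn11 lie below 0 and that of Zfp369 above it.

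The 5 genes were then compared with each other across mice, after the mean of each group had been subtracted, to see which varied together. Of the 10 pairs, Ntrk2 and Ngfr had the strongest relation. Mice with more Ntrk2 had less Ngfr, with r = −0.85 (permutation p = 0.00135, adjusted p = 0.0135 over the 10 pairs) and rho = −0.71 (permutation p = 0.0161, adjusted p = 0.161). It ran the same way in each group, at r = −0.85 among CSD mice and −0.86 among HC mice. CSD replicate 7 and HC replicate 6 combined the highest Ntrk2 of their group with its lowest Ngfr. The relation rested largely on them, since r was −0.50 without the 2 arrays farthest from the median of Ntrk2. It also depended on the scaling between arrays, with r = −0.10 (permutation p = 0.747) after each array had been centred on its median, where r was −0.50 without the 2 arrays then farthest. Ntrk2 varied by so little that the differences between array medians, which lay between 7.50 and 7.69, exceeded its own range, from 11.64 to 11.78.
The other 9 pairs did not pass after adjustment. The receptors Ntrk2, Ntrk3 and Sort1 tended in one direction, with r = 0.51 for Ntrk3 and Sort1 (permutation p = 0.0840, adjusted p = 0.221) and rho = 0.38 (permutation p = 0.227, adjusted p = 0.670), which fell to r = 0.21 without the 2 farthest arrays. Ntrk2 and Sort1 reached r = 0.55 (permutation p = 0.0885, adjusted p = 0.221) and rho = 0.27 (permutation p = 0.423, adjusted p = 0.670), and r was −0.14 without the 2 farthest arrays. After centring, that pair alone passed by Pearson's r, at r = 0.84 (permutation p = 0.00422, adjusted p = 0.0422), but not by rank, at rho = 0.80 (permutation p = 0.00566, adjusted p = 0.0566). Centring subtracts the same array medians from both genes, and these medians differed by more than either Ntrk2 or Sort1 ranged. It can raise r by itself, so this p does not show that Ntrk2 and Sort1 vary together. Bdnf and Ntrk3 had r = 0.81 among the CSD mice and r = −0.61 among the HC mice, a contrast that was not tested, and r = 0.20 over all 12 (permutation p = 0.540, adjusted p = 0.676), with rho = 0.16 (permutation p = 0.643, adjusted p = 0.743).

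**Figure D3:**
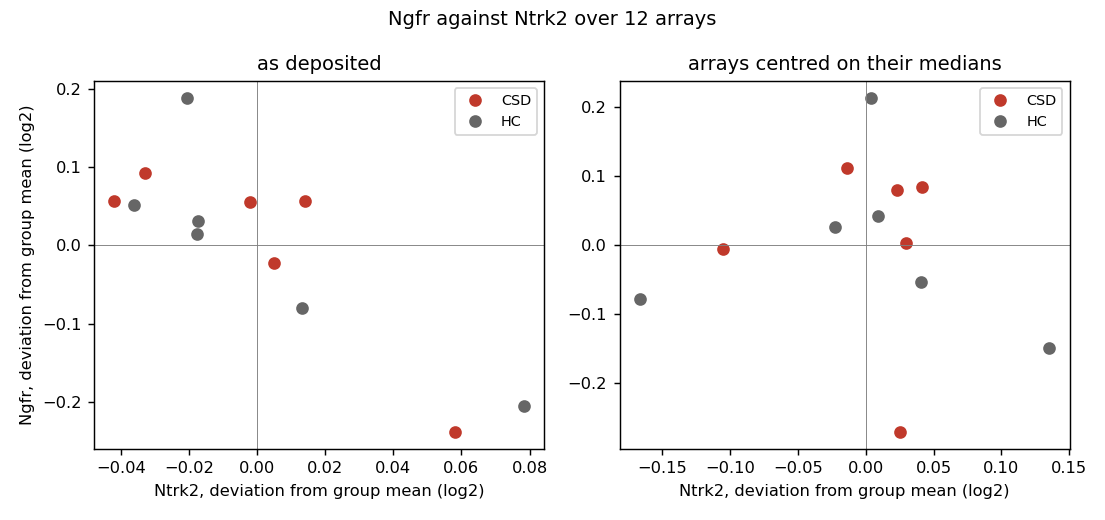
Ngfr (vertical axis) against Ntrk2 (horizontal axis), each as the deviation from its group mean in log2 units, for 6 CSD (red) and 6 HC (grey) mice, with the values as deposited on the left and after centring each array on its median on the right. The inverse relation on the left, r = −0.85, is led by a CSD and an HC mouse at the lower right, and on the right r is −0.10.

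For each gene the measured genes with the most similar pattern over the 12 arrays, with group means subtracted, were listed as a description without a test. They were picked for the highest r among all measured genes, so a high r follows from the choice and is no evidence of a link. Bdnf was most like Pdgfa, which encodes a platelet-derived growth factor chain (r = 0.97), the ETS-family repressor Etv3 (r = 0.95) and Elfn2 (r = 0.94), none of which differed between the groups (adjusted p of 0.687, 0.862 and 0.853 from limma). After centring, the r with Pdgfa was 0.73 and that with Etv3 0.93. Ntrk2 was most like Dpm1, which makes the mannose donor of protein glycosylation (r = 0.91), the mitochondrial carrier gene Slc25a16 (r = 0.89) and Anp32e, a chaperone of a histone variant (r = 0.89). Ntrk3 was most like the postsynaptic scaffold gene Dlgap2 (r = 0.92), Setbp1 (r = 0.92) and Map1b, a microtubule-associated protein of neurons (r = 0.92). Ngfr was most like Il17a (r = 0.86), Gpr1 (r = 0.85) and Cmtm7 (r = 0.85). The likeness of Ngfr to Il17a sets it beside a gene close to system noise, at 5.95 in CSD and 5.95 in HC mice. Sort1 was most like the glycosyltransferase genes Mgat5 (r = 0.95) and Pomgnt1 (r = 0.94) and the ephrin receptor gene Epha4 (r = 0.95).

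Of the genes that act with these ligands and receptors, 81 were measured, 33 with a higher and 48 with a lower mean in CSD mice. None was called after adjustment (0 by limma), and at an unadjusted p under 0.05 in limma 2 were higher and 5 lower, or 7 of 81, close to the share among all measured genes, of which 1.89% were higher and 6.52% lower at that limit. Their median difference was −0.01 log2 units, and that of all measured genes was −0.01 too. Without HC replicates 2 and 6 the means were 45 higher and 36 lower, against 10214 higher and 7238 lower among all measured genes.

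Among ligands and receptors outside the 5, the ligand gene Ntf5, for neurotrophin 4, had a log2 value of 6.58 ± 0.05 in CSD and 6.61 ± 0.23 in HC mice (SD, n = 6 each; adjusted p = 0.959 from limma). HC replicate 2, at 7.02, was highest and HC replicate 6, at 6.34, lowest of all 12 mice, and the difference of −0.03 was 0.05 without HC replicate 2. Of 8 further receptors and receptor partners, 5 had a higher and 3 a lower mean, all within 0.08 log2 units, and 0 passed at an unadjusted p. Lrig1, a membrane protein that restrains receptor tyrosine kinases, had a difference of −0.07 (standard error 0.06, adjusted p = 0.802 from limma). Kidins220, a scaffold that Trk receptors bind and phosphorylate, had one of 0.03 (standard error 0.03, adjusted p = 0.845 from limma).

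Downstream of the Trk receptors, the adaptor gene Gab1 had the smallest p of the pathway genes in limma, while by the methods' t-test that of Ptpn11 was smaller (adjusted p of 0.296 for Gab1 and 0.281 for Ptpn11). Gab1 docks onto activated receptors and recruits phosphatidylinositol 3-kinase and the phosphatase SHP2, which Ptpn11 encodes. Gab1 ranged from 8.96 to 9.29 with a median of 9.09 in CSD mice, and from 9.32 to 9.70 with a median of 9.44 in HC mice. Every CSD mouse was below every HC mouse in the values as deposited, but not after each array had been centred on its median. The difference was −0.37 log2 units (standard error 0.07), and it did not pass the adjustment over all probe sets (adjusted p = 0.132 from limma, 0.0591 to 0.317 over the alternatives). The exact permutation p was 0.00216, two-sided, the smallest that 6 against 6 allow. Any gene whose groups do not overlap has this p, and Gab1, Ptpn11 and Pcsk6 were named for their small p in limma. It is therefore no separate support for them.
Ptpn11 was also lower in every CSD mouse, by less. It ranged from 10.49 to 10.53 with a median of 10.52 in CSD mice, and from 10.58 to 10.67 with a median of 10.62 in HC mice, a difference of −0.10 (standard error 0.03, adjusted p = 0.312 from limma, exact permutation p = 0.00216, two-sided). Of the 31 genes measured in this list of adaptors and kinases 11 had a higher and 20 a lower mean, with a median of −0.02. Those with an unadjusted p under 0.05 in limma beside Gab1 and Ptpn11 were named after their values were seen. They are Gab2, a relative of Gab1, at −0.14, the small GTPase gene Nras at −0.11, and Rps6ka3, a kinase that acts on CREB, at 0.21 (adjusted p of 0.330, 0.576 and 0.424 from limma).
The groups did not overlap for 3 of the 81 genes, all lower in CSD, against the 0.935% of all measured genes. With the arrays centred on their medians this held for 1 of the 81, an adaptor or kinase other than Gab1 and Ptpn11. The groups then overlapped for Gab1, Ptpn11 and Pcsk6. The mature oligodendrocyte markers moved the same way on the same arrays, 13 of 13 lower, with their summed level at 0.685 of the HC level in CSD mice, and for 9 of them the groups did not overlap either (3 of them after the arrays had been centred on their medians, and 3 after quantile normalization). The paper's supplemental table, known when the pathway lists were written, already holds Gab1 among the genes lower in CSD mice. The part of mature oligodendrocytes in the lower Gab1, Ptpn11 and Pcsk6 was not tested.

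**Figure D4:**
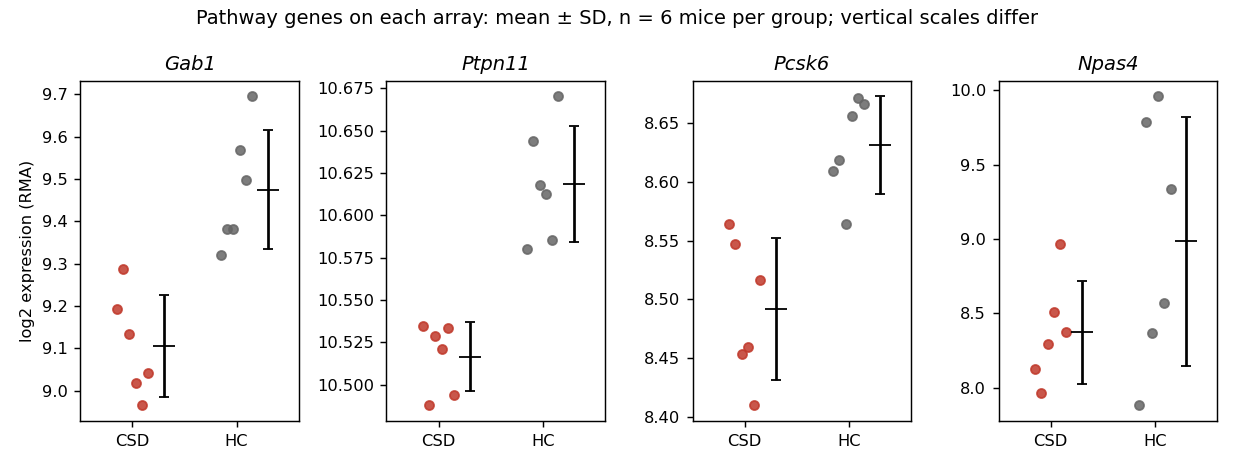
Log2 expression (vertical axis, a scale of its own in each panel) of Gab1, Ptpn11, Pcsk6 and Npas4 on each array, with CSD mice in red on the left and HC mice in grey on the right, and black marks for the group mean ± SD (n = 6). For Gab1, Ptpn11 and Pcsk6 the CSD points sit entirely under the HC points, by a narrow margin for Pcsk6, while for Npas4 the HC mice span the whole range of the CSD mice.

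The genes that sort and cleave proneurotrophins gave the third of these, Pcsk6, a proprotein convertase of the furin family. It ranged from 8.41 to 8.56 with a median of 8.49 in CSD mice, and from 8.56 to 8.67 with a median of 8.64 in HC mice. The highest CSD mouse and the lowest HC mouse nearly touched, at 8.5641 and 8.5644. The difference was −0.14 (standard error 0.04, adjusted p = 0.255 from limma, exact permutation p = 0.00216, two-sided). Its relative Pcsk5 had a difference of 0.07 (standard error 0.05, adjusted p = 0.786 from limma), which was 0.10 without HC replicate 2 and 0.14 without HC replicates 2 and 6 (unadjusted p of 0.0291 and 0.000874, adjusted p of 0.439 and 0.260 in limma). Of the 15 genes measured, 11 had a higher and 4 a lower mean, with a median of 0.02. Among all measured genes, 42.9% had a higher mean. Pcsk6 was the only one of the 15 past an unadjusted p of 0.05 in limma over all 12 arrays.

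Partners of p75 and the proteins that carry its signal had lower means in 13 of 15 genes, with a median of −0.05 and no difference beyond 0.10 log2 units, where 57.1% of all measured genes had a lower mean. Without HC replicates 2 and 6, 11 of the 15 were lower, with a median of −0.02. In that setting 7238 of 17452 measured genes were lower, with a median of 0.01. Only Zfp369, a zinc finger protein that binds the inner part of p75, had an unadjusted p under 0.05, and its mean was higher in CSD mice. It ranged from 9.43 to 9.56 in CSD and from 9.34 to 9.49 in HC mice, a difference of 0.09 (standard error 0.04, adjusted p = 0.531 from limma, exact permutation p = 0.0173, two-sided). It no longer passed an unadjusted p of 0.05 with the arrays centred on their medians (unadjusted p = 0.138 in limma), or without any 1 of HC replicates 2 and 5 and CSD replicates 2, 7 and 9. Traf6, an adaptor that p75 recruits, had a difference of −0.07 (standard error 0.04, adjusted p = 0.659 from limma).

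Of 11 measured regulators of Bdnf transcription 4 had a higher and 7 a lower mean, with 0 at an unadjusted p under 0.05 in limma. Npas4, an activity-induced transcription factor that acts on Bdnf promoters, varied far more than Bdnf itself. It ranged from 7.97 to 8.97 with a median of 8.33 in CSD mice, and from 7.88 to 9.96 with a median of 8.95 in HC mice. HC replicates 2, 4 and 6, at 9.79, 9.96 and 9.34, were above all CSD mice, and HC replicate 1 was below them. The difference of −0.61 had a standard error of 0.33 and an interval from −1.32 to 0.10 (adjusted p = 0.676 from limma, exact permutation p = 0.134, two-sided), and it depended on single mice. It was −0.32 without HC replicates 2 and 6, −0.42 without HC replicate 4 and −0.83 without HC replicate 1, the last with an unadjusted p of 0.0141 and an adjusted p of 0.473 in limma. Bhlhe40, a repressor of a Bdnf promoter, had a difference of −0.16 (standard error 0.08, adjusted p = 0.633 from limma). Creb1, which encodes CREB and was singled out for the half-site above after its values were seen, was 10.20 ± 0.08 in CSD and 10.20 ± 0.07 in HC mice (SD, n = 6 each; adjusted p = 0.996 from limma).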

How the data were processed

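The authors deposited log2 values for 35556 probe sets on 12 arrays, made by RMA in the Affymetrix Expression Console, per the methods and the submitters' processing notes. No version was stated. RMA subtracts background, normalizes arrays to each other and summarizes probes, and 200 ng of total RNA entered each labelling. An array has no read depth, so the number of mice limits the precision.

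The methods define system noise as the mean at which a LOWESS curve of the coefficient of variation becomes linear. With a span of 0.2 this was 8.75, above the median of 7.56, so that the percentile 20 of all values, 5.75, was used. Probe sets with no value above it were left out (5718), and 4.67% of the remaining values were raised to it. CSD minus HC was tested with limma 3.58.1 in R 4.3.3 (two-sided, Benjamini-Hochberg over 29838 probe sets, no covariate). A call needed an adjusted p under 0.05 with a fold change of 1.2 or more. The methods' t-test is the Welch test on the same values. Single genes were also compared by exact permutation tests, whose smallest p is 0.00216, and correlations by 100000 permutations within groups (Python 3.11.15, scipy 1.17.1, seed 11). The fit and the correlations were tested on simulated data. Figures were drawn with matplotlib 3.10.9.

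The annotation of 2016 assigns 21789 probe sets to 1 gene, 1621 to several and 12146 to none, and the brightest probe set of a gene stood for it. The genes named are the 5 measured members, the 2 genes of each pathway list with the smallest p, and the 3 genes most like each member, and others are marked. The members and lists were chosen with earlier results of these data known. Promoter windows are from RefSeq (GRCm38.p6) and matched 3 of the 5 genes.

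Alternatives concerned the test (the methods' t-test, a trended and robust limma fit, weighted arrays, a replicate block), the threshold (no adjustment, no fold limit), the values (no floor, no filter, noise raised by 1 log2 unit, median centring, quantile normalization), the probe sets (those of a single gene) and the arrays (each left out in turn, HC replicates 2 and 6 left out together).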

Additional observations from a re-analysis of the deposited data

Results flagged for a closer look

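Among the 5 genes and the 11 other pathway genes named, 2 of the 32 groups of 6 mice held a value whose gap to the nearest other mouse exceeded Dixon's 95% limit, where chance flags about 1 in 20 groups. Ngfr was lowest in CSD replicate 7, at 7.50 against 7.71 for the next CSD mouse, a gap of 0.653 of the range. Kidins220 was lowest in CSD replicate 8, at 11.50 against 11.54 for the next CSD mouse, a gap of 0.712 of the range.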

How the results depend on the processing

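None of the 5 genes was called under any alternative, and the lowest adjusted p from limma or the methods' t-test over all of them was 0.508 for Ntrk3, 0.517 for Sort1, 0.518 for Ntrk2, 0.675 for Bdnf and 0.803 for Ngfr. Leaving out each mouse in turn moved the difference from 0.02 to 0.12 for Bdnf, 0.03 to 0.06 for Ntrk2, 0.05 to 0.10 for Ntrk3, −0.0709 to 0.0179 for Ngfr and 0.02 to 0.05 for Sort1. Over the other alternatives it ranged from 0.05 to 0.09 for Bdnf, 0.03 to 0.06 for Ntrk2, 0.05 to 0.08 for Ntrk3, −0.07 to −0.03 for Ngfr and 0.02 to 0.07 for Sort1. Ngfr turned to 0.01 without HC replicate 1 and 0.02 without CSD replicate 7. Ntf5 turned to 0.00746 with array weights and 0.00443 without HC replicates 2 and 6, and ranged from −0.0855 to 0.0499 with 1 mouse left out. Over all probe sets the 0 calls after adjustment became 21 over the probe sets of a single gene, 14 in the trended and robust fit and 1 after quantile normalization, none of them one of the 5 genes or of the 11 other pathway genes compared. They stayed at 0 with any 1 mouse left out. The 406 calls without adjustment became 127 over the probe sets of a single gene and 2516 with no fold limit, and ranged from 340 to 494 with 1 mouse left out. The replicate block (numbers 2 and 6 occur in both groups) gave 0 calls after adjustment and 400 without. Same-numbered mice did not deviate together (r = −0.21 and −0.04), so the numbers were not taken as pairs. The correlation of members passed for 1 pair, and for 0 pairs without HC replicates 2 and 6, where Ntrk2 and Ngfr had r = −0.80. In that setting Bdnf and Ntrk2 turned to 0.15 and Bdnf and Ngfr to −0.0736, and Bdnf and Sort1 turned to −0.0831 with centred arrays. The causes were not tested. The mean over several probe sets of a gene could not be run, because each of the 5 has 1.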
